A study of Mus musculus with 14 samples.

Results

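The genes described here are 38 mouse genes that mark cells duplicating their DNA or preparing to divide, 19 of S phase and 19 of G2 and mitosis (G2/M). They were chosen by name, as lists of known cell cycle markers, and not by a rule on their values, but with earlier results of these data known. All 38 were found among the 25832 gene identifiers in the count tables of 4 single-cell plates.

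The series examines Phf19, a cofactor of Polycomb repressive complex 2, in hematopoietic stem cells (HSCs) of mouse bone marrow. It has 14 samples, of which the 4 MARS-Seq plates (350W, 351W, 352W and 353W) are used here. MARS-Seq sorts single cells into wells and counts the 3′ ends of transcripts by molecular barcodes, called unique molecular identifiers (UMIs). The labels describe the plated cells as HSCs with the surface markers CD150+ and CD48-, from marrow depleted of lineage-positive cells and used without culture or treatment.

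The series names 2 genotypes, a floxed condition used as control and PHF19 KO. The plate labels give no genotype, and it was read from the WT or KO prefix of each cell name in the table headers. The sources used here do not say that cells named WT come from floxed controls, nor which Cre was used, nor the age, sex and number of the mice. Each plate held 96 WT wells and 96 KO wells in separate ranges of well numbers, so genotype and well position cannot be told apart. A plate and prefix together form 1 sum of counts, and the comparisons rest on 4 such sums against 4. With the plate as a block, the p-values weigh the mean difference of KO and WT cells within a plate against its spread between plates. That spread was estimated with help from all genes, and it may be technical.

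Adult HSCs are mostly quiescent, and a dividing HSC passes through S phase, G2 and mitosis in turn. S phase genes are switched on by E2F transcription factors as a cell leaves G1, and encode the helicase, polymerase clamp and nucleotide-making enzymes of DNA replication. G2/M genes are held down in resting cells by the DREAM complex and later switched on by B-MYB and FOXM1. They encode the mitotic kinase with its cyclins, the chromosome and spindle proteins, and the ligase parts that end mitosis.

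After wells with fewer than 500 UMIs were left out (3 WT and 49 KO wells), 716 of 768 wells remained, with 220821 to 510791 UMIs per sum. The depth of the median cell was smaller for KO in each plate, at 2230 against 3077 UMIs in 350W, 3120 against 3806 in 351W, 2552.5 against 2920 in 352W and 4483.5 against 5006 in 353W. Phf19 itself had 1, 0, 0 and 5 UMIs in the WT sums and 0, 2, 1 and 0 UMIs in the KO sums, too few to check the prefixes, and the sources used here do not name the deleted exons. No cell name was shared by 2 plates, and no pair of cells had identical counts.

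The plates stand apart in markers of cell type. The summed level of 15 HSC markers was 3083 to 3286 CPM (UMIs of a gene scaled to a common total) in the sums of 350W and 351W and 1678 to 1989 CPM in those of 352W and 353W. Ifitm1 made up most of that gap, at 1464, 1292, 566 and 542 CPM per plate, while Kit was level at 215 to 241 CPM, and Meis1 (133, 133, 347 and 94.1 CPM) and Hoxa9 (73.1, 52.4, 108 and 123 CPM) did not fall together. Slamf1, the gene of CD150, was low in all plates, at 9.37, 29.7, 1.86 and 0 CPM. A list of 11 lymphoid markers, 10 of them in the tables, summed to 89.8 to 155 CPM in the first pair of plates and 1651 to 12213 CPM in the second. Ighm, Igkc, Flt3 and Dntt carried that gap, Ighm at 7.50, 0, 6141 and 1100 CPM, while Cd79b, Ebf1, Il7r and Cd3g were not higher in both plates of the second pair than in both of the first. A list of 10 myeloid markers summed to 272 to 327 CPM against 598 to 696 CPM. Mpo was at 0 in 350W and 351W and at 186 and 194 CPM in 352W and 353W. Lyz2, S100a9, Elane and Ms4a3 were not higher in both plates of the second pair than in both of the first. The lists of 11 erythroid and 6 megakaryocyte markers ranged over 471 to 1114 CPM and 47.2 to 725 CPM, and were mostly lower in the second pair of plates. The largest falls were those of Car2 (1005, 787, 429 and 411 CPM) and Vwf (510, 46.7, 5.57 and 16.8 CPM). Tfrc was higher in both plates of the second pair, and Car1, Gata1, Klf1 and Itga2b were highest in 353W. Every difference between plates below has these marker levels beside it, and their part in it was not tested.

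All 38 genes had UMIs, from 10 for Bub1 to 551 for Hmgb2, and their totals were 3041 UMIs for the S phase genes and 2493 for the G2/M genes. A UMI is counted once per transcript end, so CPM values are not divided by gene length. Of the S phase genes 13 were detected in all 8 sums, and of the G2/M genes 9. A sum with 0 UMIs of a gene allows a level of up to 5.87 to 13.6 CPM, taken as 3 counts of its total, for counting error only. Values by sum are given for the 12 genes of each phase with the highest mean CPM, and plates are listed in the order 350W, 351W, 352W, 353W.

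Among the S phase genes, the MCM helicase was seen through all 6 of its subunits, which form a ring around DNA and unwind it ahead of the fork. Mcm6 was at 99.4, 137, 85.0 and 184 CPM in WT cells and at 72.2, 125, 49.8 and 178 CPM in KO cells. Mcm7 was at 51.3, 109, 63.0 and 237 CPM in WT cells and at 31.6, 86.4, 27.2 and 173 CPM in KO cells. In each plate both were lower in KO cells, while the ranges over plates overlapped, and 353W was the highest plate for both. Mcm5 was at 64.1, 73.6, 97.6 and 121 CPM in WT and at 36.1, 64.0, 72.5 and 128 CPM in KO cells, and Mcm3 at 57.7, 43.1, 50.4 and 125 CPM against 22.6, 67.2, 58.9 and 105 CPM. Mcm4 was at 57.7, 43.1, 28.3 and 62.6 CPM in WT and at 22.6, 35.2, 31.7 and 65.4 CPM in KO cells. Mcm2 was at 22.4, 55.8, 18.9 and 76.4 CPM in WT and at 36.1, 64.0, 27.2 and 44.5 CPM in KO cells. These 4 subunits had no common order of WT and KO, and Mcm2 was the only subunit higher in KO cells in 3 of the 4 plates.

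Pcna, the sliding clamp that holds the polymerase on DNA, had the most UMIs of the S phase genes, 502 in 262 of the 716 cells. Its level was 119, 155, 277 and 200 CPM in WT cells and 131, 157, 195 and 243 CPM in KO cells. Gins2, part of the GINS complex that activates the helicase, was at 16.0, 38.1, 66.1 and 84.2 CPM in WT and at 45.1, 51.2, 36.2 and 75.9 CPM in KO cells. Neither gene held one order of WT and KO across plates.

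The nucleotide enzymes Rrm1, Dut and Tyms did not share a pattern. Rrm1, the large subunit of ribonucleotide reductase, was higher in KO cells of each plate, at 58.6, 48.0, 95.1 and 102 CPM against 16.0, 35.5, 69.2 and 62.6 CPM. In 353W KO cells, 14 of its 39 UMIs came from 1 cell. Dut, which removes dUTP before it can enter DNA, was at 73.7, 73.6, 183 and 206 CPM in WT and at 76.7, 60.8, 168 and 243 CPM in KO cells. Tyms, which makes thymidylate, was at 48.1, 27.9, 53.5 and 68.5 CPM in WT and at 9.02, 41.6, 81.5 and 65.4 CPM in KO cells. Slbp, which binds the stem loop of histone mRNAs, varied less between plates than these 3 enzymes, at 44.9, 78.7, 72.4 and 58.7 CPM in WT and 45.1, 54.4, 54.3 and 68.0 CPM in KO cells.

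The other 7 S phase genes were sparse. Uhrf1, which carries DNA methylation through replication, had 62 UMIs, and the transcription factor gene E2f1 had 46. Rrm2, Ung, Cdc6, Ccne1 and Ccne2 had 19 to 26 UMIs each. Of the 24 UMIs of Cdc6, a loader of the helicase, 8 were in 1 cell. E2f1 lay at a lower level in 352W and 353W together than in 350W and 351W together, with a ratio of 0.368, the lowest of the 19 S phase genes.

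Among the G2/M genes, the chromosome proteins had the highest levels. Hmgb2, a chromatin protein of dividing cells, was at 48.1, 48.2, 299 and 319 CPM in WT cells and at 90.2, 73.6, 412 and 327 CPM in KO cells. Top2a, the topoisomerase that untangles sister chromatids, was at 22.4, 25.4, 154 and 431 CPM in WT and at 54.1, 44.8, 190 and 434 CPM in KO cells. Both were higher in KO cells of each plate, and both were several times higher in 352W and 353W than in the other plates whichever the prefix. Mki67, which coats mitotic chromosomes and marks cycling cells, was at 6.41, 96.4, 81.8 and 45.0 CPM in WT and at 4.51, 32.0, 45.3 and 62.8 CPM in KO cells. Birc5, a subunit of the chromosomal passenger complex, was at 3.21, 15.2, 97.6 and 62.6 CPM in WT and at 9.02, 16.0, 95.1 and 39.2 CPM in KO cells. Cenpf, a kinetochore protein, was at 0, 0, 50.4 and 25.5 CPM in WT and at 13.5, 0, 58.9 and 15.7 CPM in KO cells, with 3 UMIs outside 352W and 353W.

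The mitotic kinase gene Cdk1 and the cyclin gene Ccnb2 went different ways over the plates. Cdk1, the kinase that drives entry into mitosis, was at 9.62, 15.2, 63.0 and 245 CPM in WT cells and at 9.02, 44.8, 58.9 and 196 CPM in KO cells. In 351W KO cells 12 of its 14 UMIs came from 1 cell, and in 353W it was seen in 99 of 175 cells. Ccnb2, a B-type cyclin, was at 6.41, 83.7, 18.9 and 56.8 CPM in WT and at 4.51, 89.6, 54.3 and 52.3 CPM in KO cells, with its highest level in 351W and not in the plates where Cdk1 was high. Ccnb1, the other B-type cyclin of the list, had 23 UMIs in 16 cells. Like Cdk1 it was highest in 353W, at 5.62, 1.41, 7.43 and 16.8 CPM per plate over both prefixes.

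The genes of mitotic exit and of the spindle followed. Ube2c, the ubiquitin-conjugating enzyme of the anaphase-promoting complex, was at 6.41, 0, 72.4 and 102 CPM in WT and at 40.6, 6.40, 99.6 and 94.2 CPM in KO cells, and its 9 UMIs in 350W KO cells were all in 1 cell. Cdc20, which activates the same complex, was at 0, 20.3, 18.9 and 33.3 CPM in WT and at 18.0, 12.8, 31.7 and 44.5 CPM in KO cells. Both had UMIs mainly in 352W and 353W. Nusap1, which bundles spindle microtubules, was at 44.9, 48.2, 72.4 and 58.7 CPM in WT and at 85.7, 70.4, 49.8 and 81.1 CPM in KO cells. Kif11, the motor that pushes spindle poles apart, was at 35.3, 38.1, 37.8 and 48.9 CPM in WT and at 31.6, 38.4, 67.9 and 52.3 CPM in KO cells. Nusap1 was nearly level between the pairs of plates, with a ratio of 1.05 of the second to the first pair. Kif11 was somewhat higher in the second pair, with a ratio of 1.44. Tpx2, which builds spindle microtubules around chromosomes, was at 3.21, 7.61, 34.6 and 25.5 CPM in WT and at 0, 22.4, 54.3 and 28.8 CPM in KO cells.

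The remaining 7 G2/M genes had 10 to 41 UMIs each. They were the kinases Plk1 (41 UMIs), Aurkb (26) and Aurka (21), the checkpoint kinase Bub1 (10), the kinetochore motor Cenpe (24), the spindle protein Hmmr (37) and Ccnb1. Aurka and Aurkb had no UMI in either sum of 350W, and Plk1, Hmmr and Cenpf had none in either sum of 351W.

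**Figure D1:**
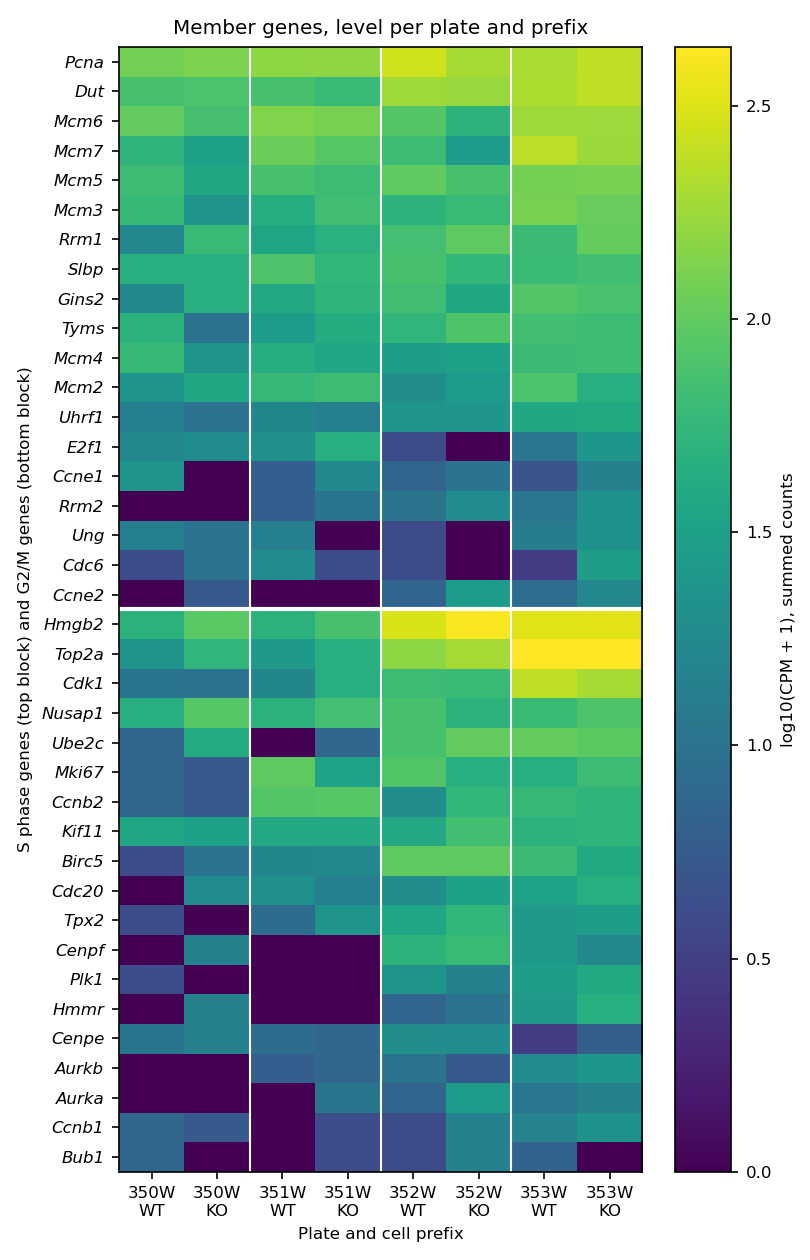
Level of each of the 38 genes (rows, S phase above the white line and G2/M below it, each ordered by mean CPM) in the 8 sums (columns, 4 plates with WT and KO cells), as log10(CPM + 1) by colour. Top2a in 353W is the brightest G2/M cell of the plot at 431 and 434 CPM, and the dark cells at 0 CPM lie mostly in the lower rows of each block.

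The promoter letters of these genes differ between the phases. RefSeq promoter windows of the build GRCm38.p6, 250 bases before to 50 bases after the start, were at hand for 33 of the 38 genes (35 windows). The cell cycle homology region (CHR), the element that DREAM and B-MYB recognise in G2/M promoters, was searched as TTTGAA or else as TTTAAA, the CCAAT box as CCAAT, and the E2F site as TTGGCGC or else as TTCCCGC or else as TTGCCGC or else as TTCGCGC, all on both strands. A CHR core was found in 15 of 17 G2/M windows (88.2%) and in 5 of 18 S phase windows (27.8%), and in 27.6% of all 32851 windows of the table. A CCAAT box was found in 15 of 17 (88.2%), 12 of 18 (66.7%) and 37.4%. An E2F core was found in 4 of 17 (23.5%), 10 of 18 (55.6%) and 9.57%. The 17 G2/M windows belong to 17 genes, but the 18 S phase windows to 16. Of these 16 genes 8 had an E2F core, 10 a CCAAT box and 5 a CHR core in any window. No E2F core was found for Ccne1, Dut, E2f1, Mcm2, Pcna, Slbp, Tyms and Ung. CHR core and CCAAT box were found together in 14 of 17 G2/M windows (82.4%), 4 of 18 S phase windows (22.2%) and 10.7% of all windows. E2F and CCAAT letters overlapped in 1 S phase and 1 G2/M window, and in 148 of all windows. A match describes the letters, not a site in use.

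The G2/M window of Nusap1 had neither a CHR core nor a CCAAT box. Bub1 lacked the CHR core, and Birc5 lacked the CCAAT box. Promoters are printed for the 3 genes with an unadjusted p below 0.05 between KO and WT cells (Rrm1, Mcm7, Hmgb2), for Top2a and Cdk1, which with Hmgb2 gave most G2/M UMIs of 353W, and for Pcna, the S phase gene with the most UMIs. Each sequence is the 150 bases just before the start, 5′ to 3′ on the strand of the gene, and capitals mark every match to the letters above. They lie at chr7:102441545-102441694 on the plus strand (Rrm1), chr5:138171267-138171416 on the minus strand (for Mcm7, whose 2 windows both hold an E2F core, the window with the core inside these 150 bases), chr2:132253181-132253330 on the minus strand (Pcna), chr8:57511693-57511842 on the plus strand (Hmgb2), chr11:99024190-99024339 on the minus strand (Top2a) and chr10:69352913-69353062 on the minus strand (Cdk1).
Rrm1: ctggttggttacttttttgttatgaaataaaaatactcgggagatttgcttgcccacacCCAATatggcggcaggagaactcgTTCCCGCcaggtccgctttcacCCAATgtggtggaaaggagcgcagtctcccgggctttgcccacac
Mcm7: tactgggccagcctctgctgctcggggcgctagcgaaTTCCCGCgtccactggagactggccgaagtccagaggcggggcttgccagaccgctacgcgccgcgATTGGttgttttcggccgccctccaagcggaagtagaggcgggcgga
Pcna: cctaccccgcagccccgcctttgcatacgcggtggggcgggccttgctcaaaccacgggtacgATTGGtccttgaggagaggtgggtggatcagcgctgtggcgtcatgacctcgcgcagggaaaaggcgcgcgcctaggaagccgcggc
Hmgb2: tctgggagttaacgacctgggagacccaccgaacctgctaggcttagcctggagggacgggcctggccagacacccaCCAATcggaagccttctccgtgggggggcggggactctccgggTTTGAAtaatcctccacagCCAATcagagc
Top2a: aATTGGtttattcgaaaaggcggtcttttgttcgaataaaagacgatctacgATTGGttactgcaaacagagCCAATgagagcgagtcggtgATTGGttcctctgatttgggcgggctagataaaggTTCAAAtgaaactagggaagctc
Cdk1: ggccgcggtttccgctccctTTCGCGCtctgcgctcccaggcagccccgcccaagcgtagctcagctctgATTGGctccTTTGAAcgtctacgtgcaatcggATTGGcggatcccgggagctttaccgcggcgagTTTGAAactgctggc
The 3 S phase promoters hold CCAAT boxes and no CHR core in these 150 bases, and those of Rrm1 and Mcm7 an E2F core. The 3 G2/M promoters hold at least 1 CHR core close to the start and 2 or more CCAAT boxes, 4 of them in Top2a, and that of Cdk1 also an E2F core.

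Summed over the 19 genes of each phase, both groups had their highest level in 353W and their lowest in 350W. S phase genes reached 737, 946, 1117 and 1568 CPM in WT cells and 636, 940, 974 and 1653 CPM in KO cells. G2/M genes reached 212, 411, 1070 and 1556 CPM in WT cells and 392, 480, 1318 and 1575 CPM in KO cells. The spread between plates was thus larger than that between prefixes within a plate for both groups. From the first pair of plates to the second, 18 of 19 G2/M genes were higher, 14 of them by more than 2-fold, with a median ratio of 4.81. The same held for 16 of 19 S phase genes, 6 of them by more than 2-fold, with a median ratio of 1.74. No test was made between plates, which are single samples. The share of all genes that were higher in the second pair was not counted, so these counts are not shown to be particular to the members.

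The genes that made up the G2/M sum changed from plate to plate. Hmgb2, Nusap1 and Top2a gave 56.9% of its UMIs in 350W. Ccnb2, Mki67 and Hmgb2 gave 48.4% in 351W, Hmgb2, Top2a and Birc5 gave 52.1% in 352W, and Top2a, Hmgb2 and Cdk1 gave 62.6% in 353W. Pcna was among the 3 leading S phase genes of every plate, with Dut, Mcm6, Mcm7 or Mcm5.

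The share of cells with a UMI of any gene of a group depends on depth, so each cell was thinned at random to 1500 UMIs, which left out 5 WT and 28 KO cells. S phase genes were then seen in 51.1%, 62.1%, 74.5% and 81.7% of WT cells and in 52.4%, 59.0%, 67.2% and 81.6% of KO cells. Without thinning the shares were 73.7%, 86.5%, 88.4% and 96.8% against 66.3%, 78.7%, 78.4% and 93.8%. The lower shares in KO cells before thinning went with fewer UMIs per cell. G2/M genes were seen in 23.4%, 38.9%, 58.5% and 76.3% of thinned WT cells and in 31.0%, 34.9%, 56.25% and 77.6% of thinned KO cells. Without thinning these were 37.9%, 68.8%, 74.7% and 94.7% against 40.2%, 57.3%, 71.6% and 97.5%. In each plate the exact 95% binomial intervals of thinned WT and KO shares overlapped. For G2/M genes in 350W they were 15.3% to 33.3% against 21.3% to 42.0%. The intervals cover counting error only, cells are not replicates of a genotype, and the overlap is not a test. The median difference of KO minus WT over plates was -1.61 percentage points for the S phase genes and -0.487 for the G2/M genes, and the second turned to 1.36 when the expected share over all thinnings was taken and to 7.92 when cells were thinned to 1000 UMIs. No cell type that should lack these genes was named in the tables, so a background share from free RNA could not be set beside them.

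**Figure D2:**
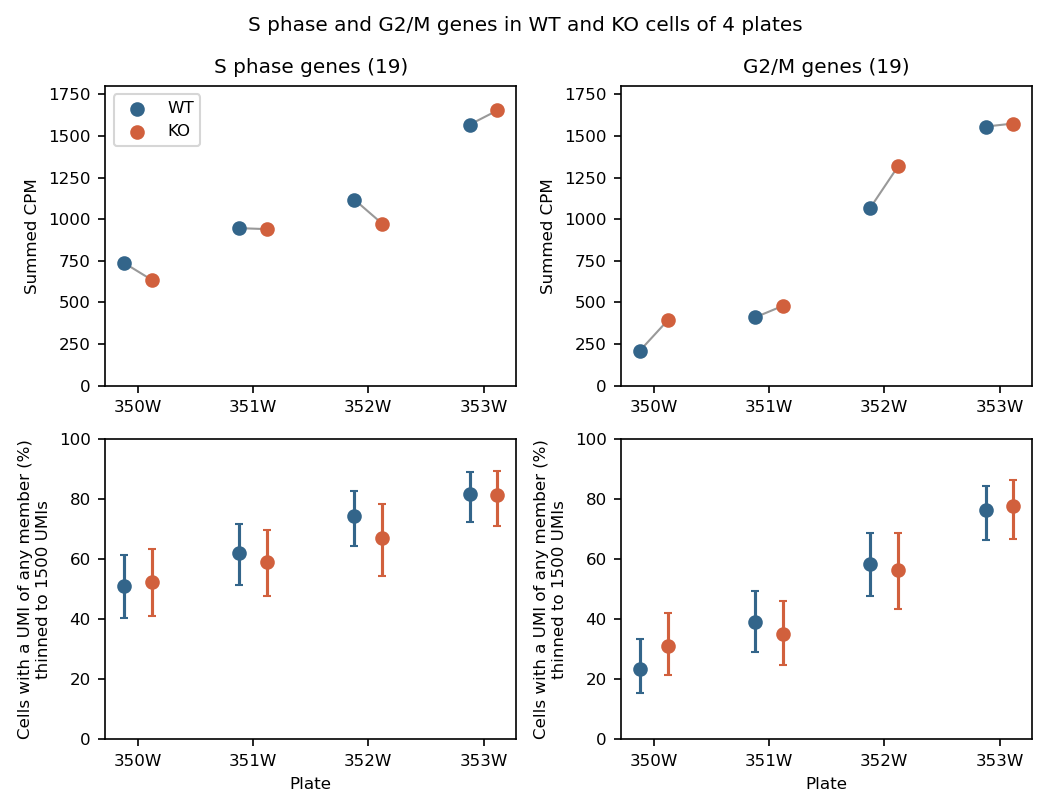
Upper panels give the summed CPM of the 19 S phase genes (left) and the 19 G2/M genes (right) in WT (blue) and KO (orange) cells, 1 point per plate and prefix with a line joining a plate. Lower panels give the share of cells thinned to 1500 UMIs that had a UMI of any of these genes, with exact 95% binomial intervals. These cover counting error only and overlap between WT and KO cells in all 4 plates, which is not a test.

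Whether the loss of Phf19 went with a change in these genes was tested on the sums by edgeR (quasi-likelihood, plates as blocks). Of all 6541 genes tested 0.0917% passed an adjusted p of 0.05, 6 genes in all, and 0 of the 21 tested members did. The other 17 members had too few counts to be tested, so they are not shown to be equal. Nor are the 21 tested members: on simulated counts the same test recovered 7.14% of 42 genes changed 1.5-fold. It recovered 43.2% of 44 genes changed 2-fold and 100% of 38 changed 4-fold. The spread of the simulated counts was set and not estimated from these data. The changed genes were drawn at random from all genes kept and not matched in level to the members. These shares are thus not the recovery to be had for a given member. At an unadjusted edgeR p below 0.05 there were 3 members, Rrm1, Mcm7 and Hmgb2, against 6.08% of all genes. DESeq2 gave 0 members at either threshold, but only 63 of all 6541 genes at the unadjusted and 1 at the adjusted threshold. Its 0 members therefore say little about these 3 genes. In all 38 members the WT and KO ranges over plates overlapped. These ranges ignore the pairing by plate, and the overlap was not counted over all genes, so it does not show a lack of difference. Among the marker lists, 0 of 11 tested HSC markers and 1 of 5 tested lymphoid markers were called, Ighm, which was lower in KO cells, at -1.10 on the log2 scale with an SE of 0.181 and an adjusted p of 0.0246 by edgeR; its part in the values below was not tested.

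The 3 members with the smallest p moved in different directions. Rrm1 had a log2 fold change of 0.74 (SE 0.284) for KO over WT cells, higher in 4 of 4 plates, with an edgeR p of 0.0187 and an adjusted p of 0.721. Mcm7 had -0.54 (SE 0.219), lower in 4 of 4 plates, with an edgeR p of 0.0242 and an adjusted p of 0.729. Hmgb2 had 0.35 (SE 0.165), higher in 4 of 4 plates, with an edgeR p of 0.0477 and an adjusted p of 0.800. None of these differences passed the threshold across all genes.

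Of the 12 tested S phase genes 3 had a positive and 9 a negative log2 fold change, with a median of -0.06, which ran from -0.15 without 351W to -0.078 without 350W when 1 plate was left out. All 6 MCM subunits were among the negative ones, at -0.02 for Mcm2, -0.10 for Mcm3, -0.28 for Mcm4, -0.24 for Mcm5, -0.25 for Mcm6 and -0.54 for Mcm7. The SE of Mcm6 was 0.197 and its edgeR adjusted p was 0.873. The signs of Mcm2, Mcm3 and Mcm4 turned when single plates or a pair of plates were left out, that of Mcm2 also with DESeq2 and with a minimum of 1000 UMIs per cell, and those of Mcm5, Mcm6 and Mcm7 did not turn in any of 12 other settings. Pcna (-0.01, SE 0.166) and Dut (0.03, SE 0.183) had the narrowest errors among the S phase genes and differences near 0. Slbp was at -0.17, Tyms at -0.03 and Gins2 at 0.08.

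Of the 9 tested G2/M genes 7 had a positive and 2 a negative log2 fold change, with a median of 0.26. Over all genes tested 49.3% were positive, and the median was -0.00406. Ube2c was at 0.51 (SE 0.385), Nusap1 at 0.37 (SE 0.277), Top2a at 0.27 (SE 0.191), Ccnb2 at 0.26 (SE 0.343), Kif11 at 0.21 (SE 0.320) and Cdk1 at 0.02 (SE 0.282). Top2a was higher in KO cells of 4 of 4 plates, and its edgeR adjusted p was 0.868. The 2 negative genes were Mki67 at -0.58 (SE 0.370), lower in KO cells of 3 of 4 plates, and Birc5 at -0.19 (SE 0.358). The value of Mki67 rested on single plates, at -0.13 without 351W and -1.18 without 353W. Leaving out 1 plate at a time moved Ube2c over 0.22 to 1.16, Top2a over 0.18 to 0.62, Hmgb2 over 0.29 to 0.59, Nusap1 over 0.22 to 0.63 and the median of the G2/M genes over 0.14 to 0.49, each highest without 353W other than Nusap1, which was highest without 352W.

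The summed levels, for which no p is given, had KO to WT ratios of 0.862, 0.994, 0.871 and 1.05 for the S phase genes. For the G2/M genes they were 1.85, 1.17, 1.23 and 1.01, above 1 in each plate. A few cells carried much of the latter: the 5 highest cells held 40.9%, 22.8%, 31.8% and 27.5% of the G2/M UMIs of WT cells, against 50.6%, 49.3%, 44.3% and 30.1% for KO cells, which were fewer. Without the highest cell of each sum the ratios were 1.73, 0.988, 1.17 and 1.01, so that 351W turned. Its highest KO cell held 35 of 150 G2/M UMIs, from 12 of the 19 genes and a total of 9045 UMIs. When each cell was given equal weight, 351W stood at 359 CPM in KO against 388 CPM in WT cells. Without Top2a and Cdk1, a choice made after their values were seen, the ratios were 1.83, 1.05, 1.25 and 1.07. Beside these ratios stand the lower depth of KO cells, the 49 KO wells left out, and the separate wells of the genotypes, and their part was not tested.

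**Figure D3:**
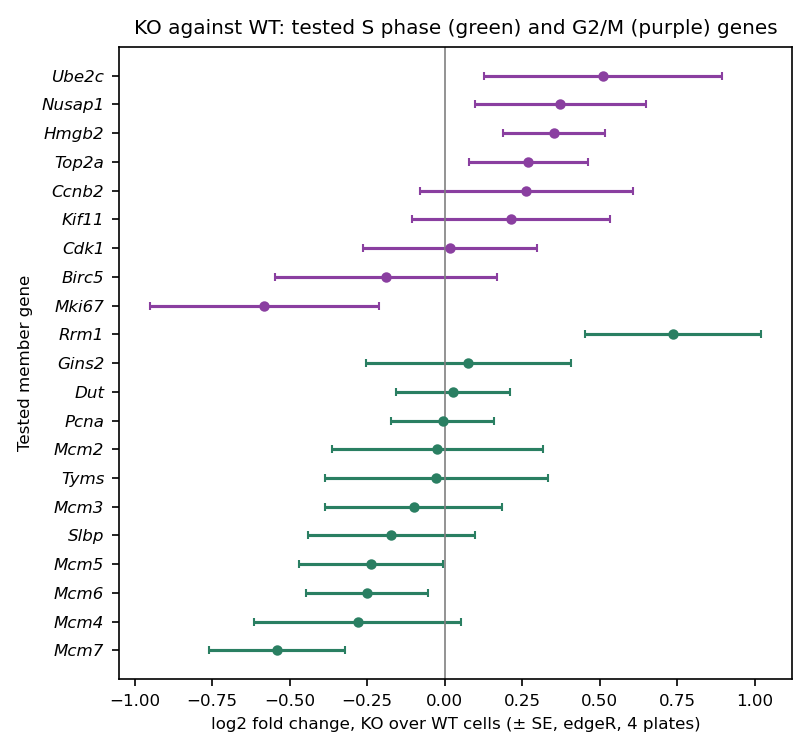
Log2 fold change of KO over WT cells (x axis) for the 21 tested genes (y axis, G2/M in purple and S phase in green, ordered by value within each phase), with bars of ± 1 SE from edgeR over 4 plates. Rrm1 at 0.74 lies farthest to the right and Mki67 at -0.58 farthest to the left (-0.13 without 351W, where Mcm7 at -0.61 is lower), and no gene passed an adjusted p of 0.05.

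Other genes of the same processes gave no call either. Of 47 further replication genes 25 were tested, 13 with a positive and 12 with a negative log2 fold change, and a median of 0.01. Of 68 further mitosis genes 27 were tested, 17 positive and 10 negative, and a median of 0.13. Of 35 regulators of the G1, S and G2 steps 10 were tested, 4 positive and 6 negative, and a median of -0.13. In each of the 3 lists 0 genes had an unadjusted p below 0.05 by edgeR. Among those with the highest levels, Ccnd2, a G1 cyclin of blood cells, was at -0.15 (SE 0.138, edgeR adjusted p 0.906), its partner kinase Cdk4 at 0.26 (SE 0.135, edgeR adjusted p 0.813) and the cyclin Ccnd3 at -0.11 (SE 0.156, edgeR adjusted p 0.954). The tubulins Tubb5 and Tuba1b, parts of the spindle and of resting cells alike, were at 0.08 (SE 0.121) and -0.03 (SE 0.117), and the histone H2afx was at 0.07 (SE 0.155). Hmgb2, the tubulins and histones have close copies in the genome, and how reads shared by copies were counted is not given in the sources used here, so their levels are less certain.

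Whether the genes were seen in the same cells was described by counting, for each pair of genes, the thinned cells with both, and the number expected if they were independent within each plate and prefix. G2/M genes were found together 357 times over 171 pairs against 245 expected, a ratio of 1.46. S phase genes were found together 560 times over 171 pairs against 458 expected, a ratio of 1.22. An S phase and a G2/M gene were found together 792 times over 361 pairs against 745 expected, a ratio of 1.06. As an expectation over all thinnings the ratios were 1.57, 1.22 and 1.08. These are sparse counts of cells that share libraries, and they are given with no p.

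By plate, the ratio of G2/M pairs over all thinnings was 2.40, 1.59, 1.84 and 1.40, that of S phase pairs 1.20, 1.27, 1.16 and 1.23, and that of mixed pairs 1.19, 1.27, 1.09 and 1.03. G2/M pairs were above S phase pairs in each plate, though not in WT cells of 351W alone, where they were at 1.19 against 1.21. G2/M pairs were at 1.48 in WT cells and 1.66 in KO cells over all plates. Before thinning the ratios of G2/M, S phase and mixed pairs were 1.71, 1.40 and 1.32, and thinned to 1000 UMIs they were 1.73, 1.26 and 1.10.

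The pairs of the most detected genes gave counts on both sides of the number expected. For the 5 G2/M pairs with the most cells expected, the counts were 32 against 27.2 for Top2a and Hmgb2, 16 against 19.7 for Top2a and Cdk1, 14 against 13.1 for Cdk1 and Hmgb2, 9 against 9.84 for Nusap1 and Hmgb2, and 9 against 8.13 for Top2a and Nusap1. For the 5 such S phase pairs they were 21 against 19.3 for Pcna and Dut, 17 against 17.6 for Pcna and Mcm6, 16 against 15.8 for Pcna and Mcm7, 8 against 13.2 for Dut and Mcm6, and 14 against 12.4 for Dut and Mcm7. Less abundant pairs, named after their values were seen, included Birc5 and Hmgb2 in 13 cells against 6.85 expected, Top2a and Ube2c in 13 against 6.93, and Mcm3 and Mcm7 in 16 against 9.17.

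**Figure D4:**
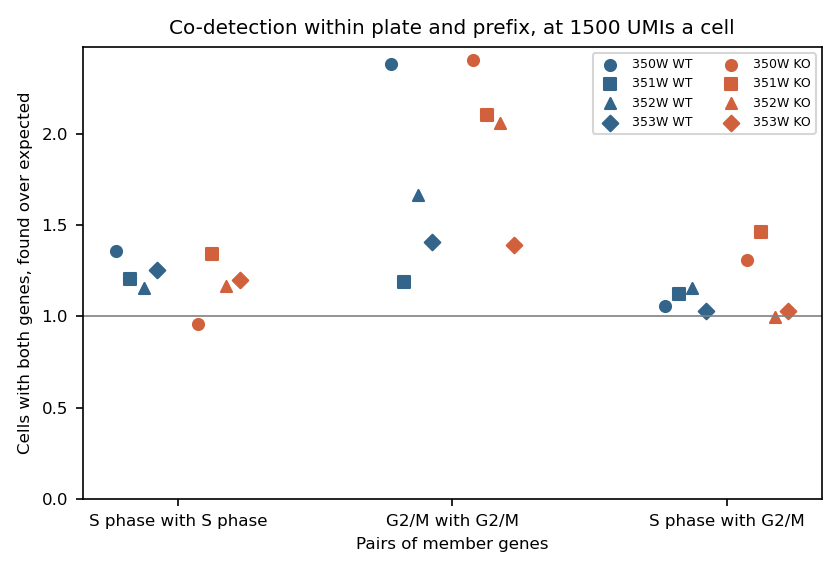
Ratio of cells found with both genes to cells expected (y axis), as an expectation over thinnings to 1500 UMIs, for pairs within the S phase genes, within the G2/M genes and between them (x axis), with 1 point per plate (shape) and prefix (blue WT, orange KO). The line at 1 marks independence, and the G2/M pairs lie between 1.19 and 2.40.

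Cells with many G2/M genes were few. Of the 683 thinned cells 348 had none, 287 had 1 or 2, 39 had 3 or 4 and 9 had 5 or more. These 9 cells came from 352W (4) and 353W (5), and 3 were WT and 6 KO cells. Among them Hmgb2 was seen in 8, and Top2a and Ube2c in 7 each, which follows in part from the way they were chosen. Of the MCM genes, Mcm3 and Mcm5 were each seen in 1 of the 9 and the other 4 in 0, which allows a share of up to 33.3%, against 4.90% to 13.2% for the 6 genes in the rest of the cells, so no difference was detectable. The median number of S phase genes was 1 in the cells with no G2/M gene and 2 in these 9. Cells with 3 or more G2/M genes numbered 0 of 94, 1 of 95, 5 of 94 and 16 of 93 in WT cells. The exact 95% upper bound for 0 of 94 was 3.85%. In KO cells they numbered 2 of 84, 2 of 83, 12 of 64 and 10 of 76, with the widest gap in 352W. That gap rests on 1 random thinning. In 352W the shares were 6.32% of WT and 10.3% of KO cells thinned to 1000 UMIs. Without thinning the order turned, at 26.3% of WT and 21.6% of KO cells.

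A G2/M gene was not equally tied to the others in each plate. In 352W, 90.5% of the 21 cells with a UMI of Ube2c had 2 or more other G2/M genes, against 28.4% of cells without it, and 92.3% of the 13 cells with Ccnb2 did, against 32.1%. In 351W, where Ccnb2 was seen in 45 cells, 28.9% of them did, against 22.9% of cells without it. For Mki67 the shares were 32.6% of 43 cells against 20.4% in 351W and 76.5% of 17 cells against 30.9% in 352W. Ccnb2 and Mki67 were seen most often in 351W, mostly in cells with few other G2/M genes. This was not particular to them, as 31.9% of all 185 cells of 351W had 2 or more G2/M genes. Top2a in 351W had 42.9% of 14 cells against 26.9%. In 353W the shares were 95.2% of 21 cells against 77.3% for Ccnb2 and 87.5% of 24 cells against 77.5% for Mki67. Nusap1 in 350W had 9.38% of 32 cells against 9.03%, and Top2a in 353W, seen in 139 of 175 cells, had 62.6% against 47.2%. These shares were not thinned, and the median depth of cells with the gene was above that of cells without it for the 8 genes plotted in every plate, other than for Kif11 in 350W.

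**Figure D5:**
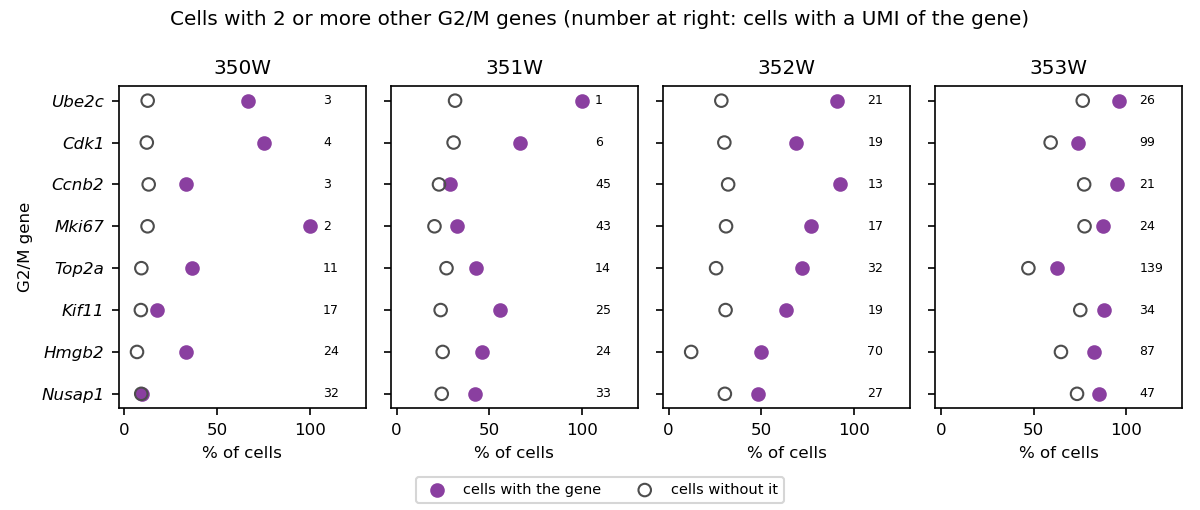
Share of cells (x axis, %) with 2 or more other G2/M genes among cells with a UMI of the named gene (filled) and cells without it (open), for 8 G2/M genes (y axis) in the 4 plates (panels), without thinning; the number at the right is that of cells with the gene. Ccnb2 shows 28.9% against 22.9% in 351W and 92.3% against 32.1% in 352W.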

How the data were processed

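Single-cell 3′ counts from 4 MARS-Seq plates were used. The deposited tables hold whole-number counts of UMIs per gene and cell, without normalization, per the labels and the values. The submitters' processing notes name GRCm38.p4 and FastQC; the aligner and counter: not given in the sources used here. The H3K27me3 region lists were not used here, and 0 table columns were left unmapped.

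The 38 genes, the other lists, the plate block and the rule for named genes (the 12 of each phase with the highest mean CPM and any called; the 3 highest of each other list and any called) were chosen with earlier results of these data known. A gene without a row in a table was taken as 0. A cell was kept from 500 UMIs upward, and doublets were not called; 25714 identifiers had a symbol. Counts were summed per plate and prefix, and CPM was computed from the sums.

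Sums were tested with edgeR 4.0.16 (R 4.3.3; filter on low counts, TMM, quasi-likelihood test, plate block, Benjamini-Hochberg adjustment over 6541 genes, threshold 0.05), and DESeq2 1.42.0 was an alternative. Each SE was obtained from the estimate and its F statistic (estimate over root F). The prefixes are paired by plate, and the deviations of WT and KO sums from the group means correlated at 0.551 to 0.652 within a plate and at -0.415 to -0.0500 between plates. The script was tested on simulated data. Cells were thinned in 1 seeded draw with Python 3.11.15, and intervals are exact (Clopper-Pearson) and cover counting error only. Promoter sequences and letters are from RefSeq (GRCm38.p6).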

Additional observations from a re-analysis of the deposited data

Results flagged for a closer look

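Signal of these genes lay in wells that the minimum of 500 UMIs left out, above the limit of 3 counts. S phase genes had 11 UMIs in the 7 wells left out of 351W, or 0.405% of all UMIs of those wells (exact 95% interval 0.202% to 0.724%), against 0.0944% in the cells kept. They had 13 UMIs in the 23 wells left out of 352W, or 0.168% (0.0894% to 0.287%) against 0.106%. G2/M genes had 6 UMIs in the wells left out of 352W, or 0.0774% (0.0284% to 0.168%) against 0.117%, and 4 UMIs in the 17 wells left out of 353W, or 0.0881% (0.0240% to 0.225%) against 0.156%. The interval of the S phase genes in 351W lies above the share in the cells kept, and the other 3 intervals include it. No sum of any of the 54 groups of 4 values stood far enough from the others to be set apart, where chance alone would set apart about 1 in 20.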

How the results depend on the processing

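The number of members past the adjusted threshold was 0 in all 13 fits, and the fit with no replicate block, which ignores that both prefixes share a plate, also gave 0 members and 0 of all genes against 6 with the plate block. Over the settings 0 to 26 genes were called, the most with no gene filter. Of 71 alternatives for the summed levels, shares, co-detection and counts of calls, 68 stayed within the limits set and 3 moved. Without thinning the S phase share moved (-7.59 points against -1.61), and so did the mixed co-detection (1.32 against 1.06). The G2/M share moved when cells were thinned to 1000 UMIs (7.92 against -0.487). The limit was 0 members called, or a value less than 1 standard deviation over plates from the main one. That limit is wide: the G2/M share as an expectation over all thinnings changed sign within it. Staying within it therefore says little about stability. Leaving out 1 plate gave median ratios of 0.871 to 0.994 for S phase and 1.17 to 1.23 for G2/M genes, shares of -3.07 to -0.142 and -2.26 to 1.29 points, and co-detection of 1.16 to 1.28, 1.39 to 1.60 and 1.04 to 1.13 for S phase, G2/M and mixed pairs. The G2/M ratio was 1.51 over 350W and 351W, 1.12 over 352W and 353W, and 1.08 as a mean over cells.

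Of 246 alternatives for single genes 22 turned the sign of a log2 fold change that had not passed the test. Leaving out 1 plate at a time turned Mcm3 and Tyms (350W), Gins2 (350W or 351W), Cdk1 (351W), Pcna and Ccnb2 (352W) and Mcm2 and Dut (353W). Over these fits Mcm2 ranged from -0.16 to 0.40, Mcm3 from -0.33 to 0.11, Tyms from -0.25 to 0.32, Gins2 from -0.15 to 0.34, Pcna from -0.15 to 0.18, Dut from -0.12 to 0.097, Ccnb2 from -0.019 to 0.49 and Cdk1 from -0.25 to 0.50. Without 350W and 351W, Mcm4 was at 0.11, Tyms at 0.23, Gins2 at -0.38 and Cdk1 at -0.25. Without 352W and 353W, Mcm2 was at 0.36, Pcna at 0.072, Dut at -0.11 and Kif11 at -0.059. With no replicate block, Tyms was at 0.013 and Cdk1 at -0.093. With a minimum of 1000 UMIs per cell, Mcm2 was at 0.00431 and Pcna at 0.000147, and with DESeq2 Mcm2 was at 0.086. The causes were not tested. Adjusted p-values of members were 0.631 or higher in every edgeR and DESeq2 setting. Depth limits the 17 members that could not be tested.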

Other observations

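The 3 further replication genes with the highest mean CPM, Fen1, Orc6 and Nasp, were each high in 1 plate, in WT and KO cells alike. Fen1, the nuclease that trims Okazaki fragments, was at 946 CPM in WT and 896 CPM in KO cells of 351W, in 94 of 96 and 81 of 89 cells and with at most 9 UMIs in a cell, and at 25.5 to 64.1 CPM in the other plates. Orc6, a subunit of the origin recognition complex, was at 519 and 532 CPM in 350W, in 66 of 95 and 61 of 92 cells, and at 3.20 to 50.4 CPM elsewhere. Nasp, a histone chaperone, was at 410 and 325 CPM in 350W and at 40.9 to 163 CPM elsewhere. The 19 S phase genes showed no such level in 350W or 351W, where Pcna led with 119 to 157 CPM.

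Top2a in 353W was likewise seen in 139 of 175 cells. Plk1 and Ccnb1, the sparse regulators of mitotic entry, lay at the other end: each of the 30 cells with a UMI of Plk1 and of the 16 cells with a UMI of Ccnb1 had 2 or more other G2/M genes. Of these cells 21 and 9 were in 353W, where 77.3% of cells without Plk1 and 78.9% of cells without Ccnb1 had as many, and 8 and 4 were in 352W, where 33.5% and 35.2% did. These shares were not thinned, and the cells with Plk1 had a median of 7851 UMIs against 4275 in the others of 353W.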
